A study of Mus musculus with 6 samples.

Results

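The nuclear-encoded respiratory chain genes are the genes of the mouse nuclear genome that code for the subunits of the 5 oxidative phosphorylation complexes and for cytochrome c. They were chosen by gene symbol alone, from the Nduf, Sdh, Uqcr, Cox4 to Cox8, Cyc1, Cycs and Atp5 series, and 79 of the 16982 genes in the count table carried such a symbol. Of these, 34 were counted with complex I, 4 with complex II, 9 with complex III, 1 as cytochrome c, 14 with complex IV and 17 with complex V. The name rule is not exact. Ndufa4 was counted with complex I by its name although its protein is now placed in complex IV, and Atp5s and Atp5sl carry the Atp5 prefix without being subunits of the ATP synthase. Cox4i1, Ndufs8, Ndufb8, Cox8b and Cox8c are not analysed here.

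The respiratory chain sits in the inner mitochondrial membrane. Complexes I and II pass electrons from NADH and succinate to ubiquinone, complex III passes them to cytochrome c, complex IV passes them to oxygen, and complex V, the ATP synthase, uses the proton gradient that complexes I, III and IV build. Apart from complex II, the complexes combine subunits of the mitochondrial genome with nuclear-encoded subunits, and a shift from respiration towards glycolysis is a known early event when fibroblasts are reprogrammed.

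The study compared 3 wild type (WT) with 3 Rnf20-/- knockout (KO) cultures of C57BL/6 mouse embryonic fibroblasts (MEF) at day 3 after retroviruses for the reprogramming factors C-MYC, KLF4, SOX2 and OCT4 were introduced, named reprogrammable cells in the labels, to see which transcripts depend on RNF20, an E3 ligase for histone H2B monoubiquitination. In the methods the KO cells are Rnf20 Flox/Flox with a tamoxifen-inducible Cre expressed in all tissues, and deletion is started with 4-OH tamoxifen. The labels give "untreated" for all 6 samples, and whether the WT cells carried the Cre or met the drug is not given in the sources used here. Infected cells were replated on feeder layers of mitomycin-C-treated MEF in the described protocol, so that host RNA may be present, and no label states whether the replicates came from separate embryos, so p-values measure the spread between these samples only.

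The libraries held 20545442 to 20672939 counts in WT and 21172325 to 21746898 in KO. Rnf20 was at 107, 107 and 106 CPM (counts scaled to library size) in WT and at 18.7, 18.5 and 16.4 CPM in KO, a log2 fold change of -2.57 ± 0.081 (SE, adjusted p = 0.000163, edgeR quasi-likelihood test with Benjamini-Hochberg adjustment, lower in 3 of 3 KO libraries). KO replicate 3 stood apart from the other KO libraries. The chi-square statistic per gene between it and KO replicates 1 and 2 was 92.4 and 101, against 8.57 between those 2 libraries and 6.04 to 8.92 between WT libraries. In the same library the summed level of 8 fibroblast markers was 17563 CPM against 26358 to 32776 CPM in the other 5 libraries, and that of 4 epithelial markers was 3.14 CPM against 23.3 to 42.9 CPM. The 6 macrophage markers summed to 220.8 CPM there against 42.2 to 87.5 CPM elsewhere, the 4 endothelial markers to 32.3 CPM against 48.3 to 66.9 CPM, and the 12 proliferation genes to 256 CPM against 678 and 589 CPM in KO replicates 1 and 2. The Y-linked gene Ddx3y was over 1 CPM in all WT libraries and in KO replicate 2 only of the KO libraries. The part of these differences in the values of the respiratory chain genes was not tested, and the counts by complex are given also without KO replicate 3. In these bulk samples fewer cells of a type and less RNA per cell cannot be told apart.

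Levels can be compared between genes only per length, as FPKM (fragments scaled to transcript length and library size), which the authors deposited for 75 of the 79. The median of the mean WT levels was 120 FPKM, from 4.75 FPKM for Atp5s to 600 FPKM for Atp5b, the catalytic beta subunit of the ATP synthase. By complex, the median WT level was 91.0 FPKM for complex I, 97.3 for complex II, 160 for complex III, 303 for complex IV and 266 for complex V, whereas Cycs, the somatic cytochrome c, was at 24.7 to 25.6 FPKM in the 3 WT libraries.

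The gene with the highest level in complex I was Ndufa4 at 321 ± 6.66 FPKM in WT (SD, n = 3), in complex II the membrane anchor Sdhd at 122 ± 7.47 and in complex III the small subunit Uqcr10 at 358 ± 42.8. In complex IV Cox7c led in WT at 503 ± 16.4 FPKM and Cox8a, at 485 ± 57.3 FPKM, was lower by less than its SD, while over all 6 libraries Cox8a had the highest mean. The KO means followed the WT means along the diagonal over the whole range of levels, with Cox6b2, at 72.6 ± 14.9 FPKM in WT and 37.5 ± 6.37 FPKM in KO, furthest below it among the genes with FPKM.

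**Figure D1:**
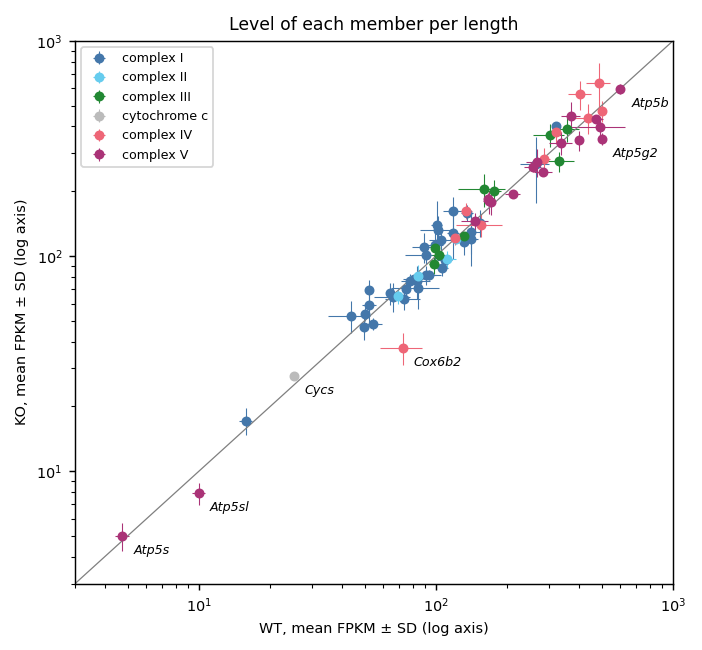
Mean FPKM in KO (vertical, log axis) against mean FPKM in WT (horizontal, log axis) for the 75 respiratory chain genes with FPKM, coloured by complex, with bars for the SD over 3 libraries and a grey line of equal level. The points follow the line from Atp5s at 4.75 FPKM to Atp5b at 600 FPKM, and Cox6b2 lies below it.

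The low-count filter removed 3 genes, all of them isoform genes of complex IV. Cox6a2 and Cox7a1 code for the heart and skeletal muscle forms of subunits 6a and 7a, and Cox7b2 for a second form of subunit 7b. Their counts were 1, 4 and 0 in WT and 0, 2 and 3 in KO for Cox6a2. Those of Cox7a1 were 4, 5 and 6 in WT and 5, 1 and 6 in KO, and those of Cox7b2 were 0, 0 and 0 in WT and 0, 3 and 0 in KO. All 3 were thus at the limit of detection in both genotypes. The muscle markers Myod1, Myog and Ckm were at or below 0.143 CPM in every library, and the 7 muscle markers together summed to 8.33 to 19.3 CPM.

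In KO cells the respiratory chain genes showed small changes in both directions around a median close to 0. Of the 76 genes tested, 4 fell (Atp5g2, Cox6b2, Atp5o and Ndufb11), 7 rose (Ndufs5, Cox6a1, Ndufb3, Ndufb7, Ndufa4, Uqcr11 and Ndufb9) and 65 did not pass the test at an adjusted p under 0.05 (edgeR quasi-likelihood test with Benjamini-Hochberg adjustment over 13386 genes). The share called was 14.5%, against 33% of all genes tested (16.6% lower and 16.4% higher in KO). The median log2 fold change of the 76 was 0.0088, beside -0.00032 over all genes, and 37 were negative and 39 positive. The change was under 0.5 on the log2 scale in 74 of the 76 and under 0.25 in 56, with a median SE of 0.10 on that scale. The genes at 0.5 or more were Cox6b2 and Cox4i2, both of complex IV.

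**Figure D2:**
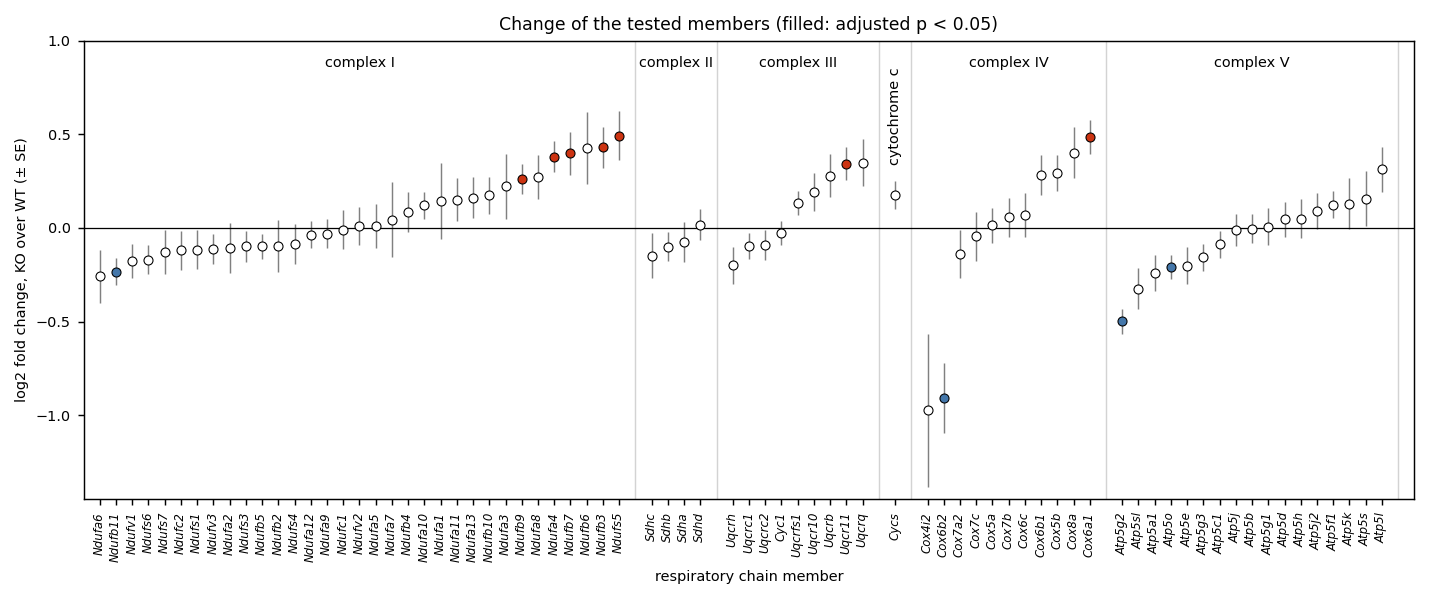
Log2 fold change of KO over WT (vertical, bars are the SE) for 75 of the 76 tested genes, ordered by value within each complex, with points filled in blue (lower) or red (higher) at an adjusted p under 0.05. Filled points lie on both sides of 0, and 73 of the 75 points are within 0.5 of it.

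The summed level of all 79 genes was 7607 ± 101.6 CPM in WT and 7574 ± 276 CPM in KO (SD, n = 3). The groups overlapped, since the KO libraries gave 7409, 7420 and 7893 CPM and the WT libraries 7490, 7657 and 7673 CPM. Complex V was lower in all 3 KO libraries (3325, 3320 and 3268 CPM) than in all 3 WT libraries (3443, 3502 and 3556 CPM). Complex IV was higher in all 3 (918, 921 and 1127 CPM against 871, 898 and 842 CPM). Such sums weigh genes by their counts, and Atp5a1 alone had means of 833 CPM in WT and 706 CPM in KO. By gene, the median log2 fold change was -0.0046 in complex V (9 negative, 8 positive) and 0.057 in complex IV (4 negative, 7 positive). No gene passed the thresholds of the study's methods, an adjusted p under 0.01 with an absolute log2 fold change over 1 and FPKM over 1, by edgeR, DESeq2 or limma, against 3.59% of all genes by edgeR and 7.34% by DESeq2, while 19 of the 76 had an unadjusted p under 0.05. The counts of calls rested on the libraries used. DESeq2 called 14 of the 76 at an adjusted p under 0.05 (38.1% of all genes) and limma 6 of the 75 with FPKM (28.8%), while at an adjusted p under 0.01 edgeR called 1 (9.88%). At 0.05 edgeR called 27 without KO replicate 3 (48.1% of all genes), 9 and 6 without KO replicates 1 and 2 (27.7% and 24% of all genes), and 3, 2 and 1 without WT replicates 1, 2 and 3 (14.3%, 11.9% and 10.3%). The share of all genes called followed the same order over the fits with a library left out. With a term for Ddx3y beside the genotype edgeR called 0 of the 76 and 0.814% of all genes, and 7 of the 76 had an unadjusted p under 0.05.

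The KO libraries did not show the same pattern. Relative to the mean of the WT libraries, the median log2 difference of the 76 genes was -0.042 in KO replicate 1 and -0.048 in KO replicate 2 but 0.14 in KO replicate 3, beside -0.0030, -0.0043 and -0.016 for all genes. In KO replicates 1 and 2, 33 and 37 genes were below all WT libraries and 21 and 24 above them, whereas in KO replicate 3 there were 16 below and 42 above. KO replicate 3 was the highest KO library for 61 genes and the lowest for 11. The median coefficient of variation was 5.10% in WT and 10.4% in KO. The WT and KO libraries overlapped for 46 of the 76 genes, and 39.5% had groups that did not overlap (19 above, 11 below), against 54.8% of all genes (26.6% above, 28.2% below).

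**Figure D3:**
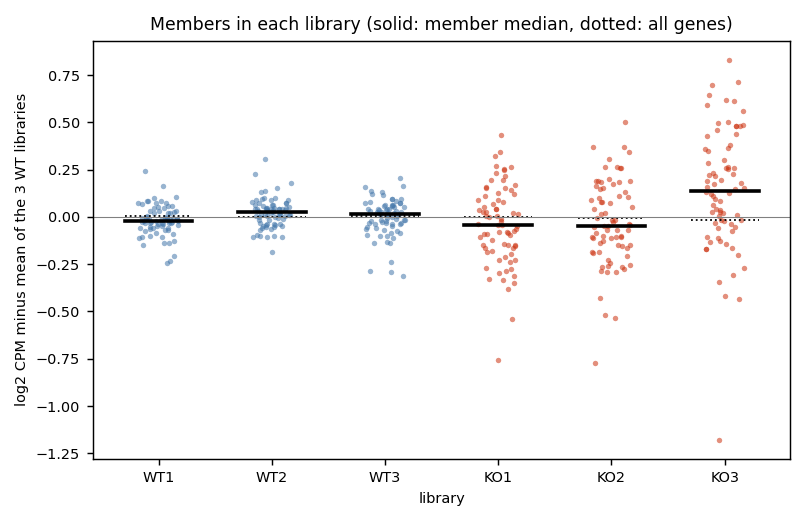
Log2 CPM minus the mean of the 3 WT libraries (vertical) for the tested genes in each library (horizontal), with solid bars for their median and dotted bars for the median of all genes. Cox4i2, at under 2 CPM, is not drawn. The solid bar is at -0.042 and -0.048 in KO replicates 1 and 2 and at 0.14 in KO replicate 3.

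In KO replicate 3 the difference from WT varied with gene length. Respiratory chain genes are short, with a median deposited length of 908 bases against 3176 bases for all genes, and 64 of the 76 were among the 2680 shortest of the genes tested (251 to 1958 bases). Over those 2680 genes the median log2 difference from WT was -0.070, -0.071 and 0.11 in KO replicates 1, 2 and 3, and over the 2677 longest (5731 bases or more) it was 0.040, 0.028 and -0.17. Among the 76 genes the correlation of the difference with log2 length was Pearson's r = -0.32 and Spearman's rho = -0.44 in KO replicate 3, against -0.092 and -0.12 in KO replicate 1 and -0.074 and -0.17 in KO replicate 2. These are descriptions over genes that share a library. After a correction of each library for GC content and length, 21 of the 76 were called, 7 lower and 14 higher (27.6% against 36.2% of all genes, at 17.8% lower and 18.4% higher), with a median log2 fold change of -0.0064.

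**Figure D4:**
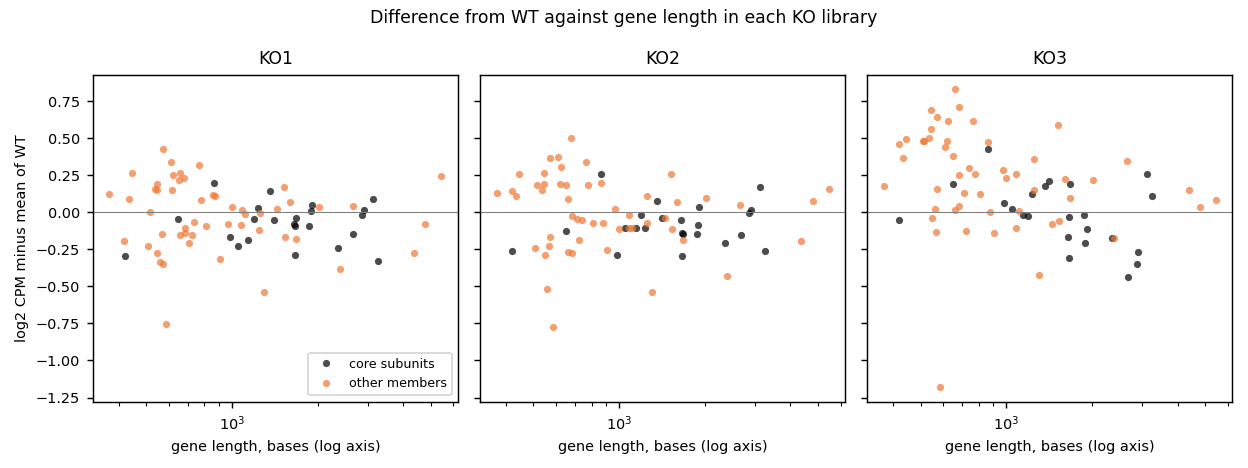
Log2 CPM minus the mean of WT (vertical) against gene length in bases (horizontal, log axis) in each KO library, for core subunits in black and other respiratory chain genes in orange, without Cox4i2. The slope is downward in KO replicate 3, where Spearman's rho is -0.44, and close to flat in the others, at -0.12 and -0.17.

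Without KO replicate 3 the fit called 15 genes lower and 12 higher, with a median log2 fold change of -0.037. The share called was 35.5%, against 48.1% of all genes (24.2% lower and 23.9% higher). The counts by complex without this library, given below, stand beside that same 48.1%. The 27 held all 11 genes called with every library, which made up 40.7% of them. Some genes were called without it but not in the uncorrected edgeR fit of all 6 libraries. They included Sdhc (-0.29 ± 0.056, adjusted p = 0.00179, edgeR quasi-likelihood test), a membrane anchor of complex II, and Cox8a (0.23 ± 0.054, adjusted p = 0.00583). Their values with all 6 libraries were -0.15 ± 0.12 and 0.40 ± 0.14, and the KO replicate 3 library was the highest of the KO libraries for both. Further genes named below for which this held were Cox5b at 0.23, Cox6b1 and Atp5l at 0.17, Atp5a1 at -0.15, Atp5g3 at -0.17 and Atp5e at -0.28 on the log2 scale (adjusted p of 0.0132 to 0.0466, edgeR quasi-likelihood test). Some of these genes also passed in other fits that kept KO replicate 3. DESeq2 called Cox8a and Cox5b, and the GC and length correction called Cox8a, Cox5b, Cox6b1 and Atp5l. The fit without KO replicate 1 called Cox8a as well. For 26 of the 27 the sign was the same in both fits. The exception was Ndufa7, at -0.23 without the library and 0.044 with it.

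In complex I, which oxidises NADH, 1 of 34 genes fell and 5 rose, with a median log2 fold change of -0.00023 (6 and 5 without KO replicate 3, median -0.043). Ndufb11, an accessory subunit of the membrane arm, was at 61.9, 62.9 and 62.2 CPM in WT and at 50.2, 52.3 and 56.5 CPM in KO. The groups did not overlap, and the log2 fold change was -0.23 ± 0.073 (adjusted p = 0.0474, edgeR quasi-likelihood test). Ndufs5, an accessory subunit on the intermembrane space side, was at 29.5, 31.2 and 28.1 CPM in WT and at 34.8, 41.8 and 48.4 CPM in KO. All KO libraries were higher and they differed widely among themselves, for a log2 fold change of 0.49 ± 0.13 (adjusted p = 0.0291, edgeR quasi-likelihood test). Ndufb3, an accessory subunit of the membrane arm, was at 25.7, 27.6 and 24.2 CPM in WT and at 32.3, 32.7 and 39.5 CPM in KO. It was higher in 3 of 3 KO libraries, by 0.43 ± 0.11 on the log2 scale (adjusted p = 0.0267, edgeR quasi-likelihood test). Ndufb7, on the intermembrane space side of the same arm, was at 40.5, 40.3 and 44.6 CPM in WT and at 49.6, 51.6 and 63.9 CPM in KO. Its KO libraries were likewise above all WT libraries, by 0.40 ± 0.11 on the log2 scale (adjusted p = 0.0377, edgeR quasi-likelihood test).

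Ndufa4, placed in complex IV at the protein level, was at 104.6, 105.8 and 91.6 CPM in WT and at 127, 130 and 136 CPM in KO. The KO libraries were close to each other and above all WT libraries, with a log2 fold change of 0.38 ± 0.081 (adjusted p = 0.0156, edgeR quasi-likelihood test). The remaining gene that rose, Ndufb9, fell outside the rule for named genes and is named here after its values were seen. This accessory subunit was at 56.0, 54.2 and 54.0 CPM in WT and at 63.6, 62.2 and 71.2 CPM in KO, a log2 fold change of 0.26 ± 0.078 (adjusted p = 0.0424, edgeR quasi-likelihood test). Ndufb11, Ndufs5 and Ndufb3 each have 1 near-identical copy elsewhere in the annotated transcripts, so that their counts are uncertain. Exons of Ndufb9 overlap those of Gm49356 on the same strand, so that its counts are uncertain too. None of the 6 genes called in complex I codes for a core subunit. Among core subunits, Ndufv1 was at -0.18 ± 0.090 and Ndufv2 at 0.010 ± 0.099 on the log2 scale. Ndufs1 was at -0.12 ± 0.10, Ndufs3 at -0.099 ± 0.084 and Ndufs7 at -0.13 ± 0.12. None of these core subunits passed the test (adjusted p of 0.168 or more, edgeR quasi-likelihood test).

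Ndufs1, the largest subunit of complex I, differed between the KO libraries. It was at 103.6, 109.0 and 109.4 CPM in WT, at 105.9 and 106.8 CPM in KO replicates 1 and 2, and at 84.4 CPM in KO replicate 3. The third KO library was thus below all the others.

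**Figure D5:**
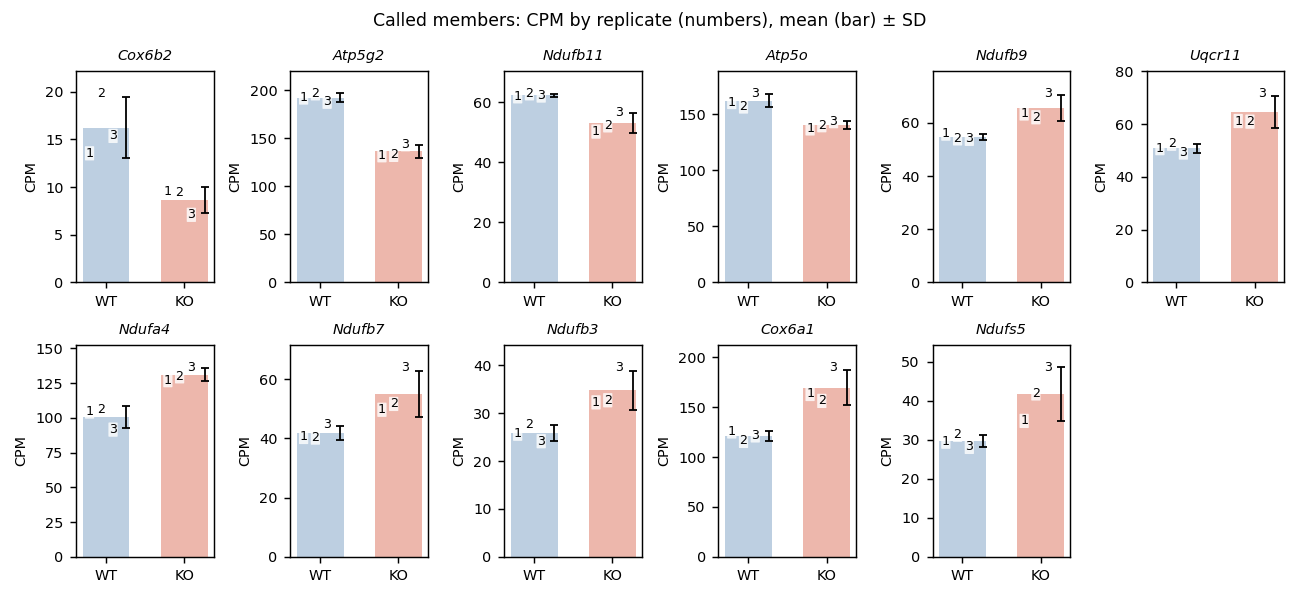
CPM (vertical, from 0) in WT and KO for the 11 genes called at an adjusted p under 0.05, with bars for the mean, error bars for the SD over 3 libraries and digits for the replicate at its value. The WT and KO digits do not overlap for any of the 11, and replicate 3 is the highest KO library for 10 of them, Cox6b2 being the exception.

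None of the 4 genes of complex II, succinate dehydrogenase, passed the test with edgeR, DESeq2 or limma, and none had an unadjusted p under 0.05 with edgeR. The WT and KO libraries overlapped for all 4, and without KO replicate 3 the fit called Sdhc lower. Sdha, the flavoprotein that oxidises succinate, was at 197, 231 and 225 CPM in WT and at 220, 220 and 180 CPM in KO, a log2 fold change of -0.077 ± 0.11. Sdhb, the iron-sulphur subunit, had -0.10 ± 0.076, and the membrane anchors Sdhc and Sdhd had -0.15 ± 0.12 and 0.018 ± 0.082. Adjusted p ran from 0.337 to 0.883 (edgeR quasi-likelihood test).

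In complex III, the ubiquinol-cytochrome c reductase, 1 of 9 genes rose and the median log2 fold change was 0.13 (1 lower and 2 higher without KO replicate 3, median 0.098). Uqcr11, a small accessory subunit, was at 50.9, 52.5 and 49.2 CPM in WT and at 61.1, 60.9 and 71.6 CPM in KO. Each KO library was above each WT library, with a log2 fold change of 0.34 ± 0.088 (adjusted p = 0.0274, edgeR quasi-likelihood test). Uqcrfs1, the Rieske iron-sulphur protein, was at 91.6, 93.6 and 93.8 CPM in WT and at 103, 98.0 and 105.0 CPM in KO. Its groups did not overlap either, but the change of 0.13 ± 0.064 did not pass (adjusted p = 0.154, edgeR quasi-likelihood test). The core proteins Uqcrc1 and Uqcrc2 had -0.097 ± 0.068 and -0.093 ± 0.081 and cytochrome c1 (Cyc1) had -0.028 ± 0.066. Cycs, which carries electrons from complex III to complex IV, was at 60.0, 63.0 and 60.2 CPM in WT and at 64.9, 68.8 and 72.9 CPM in KO, a log2 fold change of 0.17 ± 0.074 that did not pass (adjusted p = 0.110, edgeR quasi-likelihood test). It has near-identical copies in 4 other annotated genes, so its counts are uncertain.

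In complex IV, cytochrome c oxidase, 1 of 11 tested genes fell and 1 rose, and the median log2 fold change was 0.057, which turned to -0.060 without KO replicate 3 (1 lower and 4 higher). Cox6a1 (chr5:115345642-115348981, minus strand, GRCm38), the ubiquitous form of subunit 6a, was at 125.6, 116 and 122 CPM in WT and at 163, 156 and 189.6 CPM in KO. It was higher in 3 of 3 KO libraries, by 0.49 ± 0.091 on the log2 scale (adjusted p = 0.0110, edgeR quasi-likelihood test), while its muscle counterpart Cox6a2 was at the limit of detection. Cox5a and Cox5b, nuclear subunits next to the mitochondrially encoded catalytic core, had 0.014 ± 0.095 and 0.30 ± 0.096. Cox5b was at 89.4, 85.8 and 76.0 CPM in WT and at 95.7, 100.2 and 112 CPM in KO, without overlap but short of the threshold (adjusted p = 0.0545, edgeR quasi-likelihood test). Cox8a behaved likewise, at 116, 111 and 117 CPM in WT and at 131, 138 and 186 CPM in KO (0.40 ± 0.14, adjusted p = 0.0617, edgeR quasi-likelihood test). Cox7a2, Cox7b and Cox7c were at -0.14 ± 0.13, 0.057 ± 0.11 and -0.045 ± 0.13, with overlapping groups.

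Isoform genes of complex IV held the lowest fold changes of the 76. Cox6b2 (chr7:4751792-4753094, minus strand, GRCm38), known as the testis form of subunit 6b, was at 13.5, 19.8 and 15.4 CPM in WT and at 9.50, 9.40 and 7.10 CPM in KO. The groups did not overlap, and the log2 fold change was -0.91 ± 0.19 (adjusted p = 0.0147, edgeR quasi-likelihood test). Cox6b1, the ubiquitous form, was at 104, 112 and 100.6 CPM in WT and at 117, 120 and 147 CPM in KO, a change of 0.28 ± 0.11 that did not pass (adjusted p = 0.0813, edgeR quasi-likelihood test). As a share of the summed Cox6b FPKM, Cox6b2 went from 18.3 ± 2.51% in WT to 9.20 ± 2.26% in KO (SD, n = 3), with 15.4% as the lowest WT and 10.8% as the highest KO value. The summed level of both genes was 122 ± 8.85 CPM in WT and 137 ± 15.1 CPM in KO, which overlapped. Cox4i2, known as the lung and hypoxia form of subunit 4, was near the limit of detection at 0.808, 1.90 and 1.52 CPM in WT and 0.859, 0.522 and 0.762 CPM in KO, and its change of -0.97 ± 0.41 did not pass (adjusted p = 0.110, edgeR quasi-likelihood test).

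In complex V, the ATP synthase, 2 of 17 genes fell and none rose, with a median log2 fold change of -0.0046 (6 and 1 without KO replicate 3, median -0.063). The count of 0 higher held for DESeq2 and limma too, and 1 gene, Atp5l, was higher at an unadjusted p under 0.05 with edgeR. After the GC and length correction Atp5l was called higher (0.29, adjusted p = 0.0155, edgeR quasi-likelihood test). It has near-identical copies in 86 other annotated genes, so its counts are uncertain. Atp5o, the oligomycin sensitivity conferring subunit of the stalk, was at 160.9, 157 and 169 CPM in WT and at 137, 140.2 and 144 CPM in KO. All KO libraries were lower, with a log2 fold change of -0.21 ± 0.064 (adjusted p = 0.0474, edgeR quasi-likelihood test), and its exons overlap those of another gene annotated as Atp5o on the same strand and it has 1 near-identical copy, so that its counts are uncertain. The catalytic beta subunit Atp5b was at 1028, 1019 and 1046 CPM in WT and at 1070, 1060 and 954 CPM in KO, with a log2 fold change of -0.0046 ± 0.078 (adjusted p = 0.966, edgeR quasi-likelihood test). Atp5a1, the alpha subunit, was at 811, 836 and 853 CPM in WT and at 752, 748 and 616 CPM in KO, lower in all 3 KO libraries but short of the threshold (-0.24 ± 0.098, adjusted p = 0.101, edgeR quasi-likelihood test). Without KO replicate 3 its change was smaller, at -0.15 ± 0.052, and passed (adjusted p = 0.0372, edgeR quasi-likelihood test). The other central subunits Atp5c1, Atp5d and Atp5e had -0.087 ± 0.071, 0.047 ± 0.093 and -0.20 ± 0.10.

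Atp5g2 had the lowest adjusted p of the 76 genes. Together with Atp5g1 and Atp5g3 it codes for the same mature subunit c, the rotor ring of the ATP synthase, and the 3 genes differ in the import sequence that is removed. Atp5g2 lies at chr15:102662864-102672352 on the minus strand (GRCm38), and it was at 193, 197 and 188 CPM in WT and at 132, 133 and 144 CPM in KO. The miRNA gene Mir688 lies within its exons on the same strand. The KO libraries were close together and all below the WT libraries, with a log2 fold change of -0.50 ± 0.067 (adjusted p = 0.00491, edgeR quasi-likelihood test). Atp5g3 was at 194, 206 and 221 CPM in WT and at 186, 181 and 189 CPM in KO, without overlap, and its change of -0.16 ± 0.073 did not pass (adjusted p = 0.138, edgeR quasi-likelihood test). Atp5g1 was at 69.3, 56.7 and 68.1 CPM in WT and at 60.9, 68.0 and 66.2 CPM in KO (0.0075 ± 0.100). The share of Atp5g2 in their summed FPKM was 44.8 ± 1.09% in WT and 37.8 ± 0.732% in KO, that of Atp5g3 42.2 ± 0.881% and 46.6 ± 1.10%, and that of Atp5g1 13.1 ± 1.25% and 15.6 ± 0.835%. In sum the 3 genes were at 464 ± 11.4 CPM in WT and 387 ± 10.5 CPM in KO, and each KO library (379.5, 382 and 399 CPM) was below each WT library (456, 459 and 477 CPM).

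The 250 bases before the annotated start of the 3 subunit c genes and of the Cox6b pair are shown, since the genes of each set differed in their change. They were taken from RefSeq (GRCm38.p6), run 5′ to 3′ on the strand of the gene, and have in capitals the match to the binding motif of NRF1, a transcription factor known for its sites in respiratory chain promoters.
Atp5g1 (chr11:96075632-96075881, minus strand): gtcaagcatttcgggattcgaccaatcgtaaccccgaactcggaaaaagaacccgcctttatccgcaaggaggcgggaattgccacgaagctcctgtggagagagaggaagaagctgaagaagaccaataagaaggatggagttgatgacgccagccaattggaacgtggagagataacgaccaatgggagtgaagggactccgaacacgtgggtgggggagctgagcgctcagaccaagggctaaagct
Atp5g2 (chr15:102671048-102671297, minus strand): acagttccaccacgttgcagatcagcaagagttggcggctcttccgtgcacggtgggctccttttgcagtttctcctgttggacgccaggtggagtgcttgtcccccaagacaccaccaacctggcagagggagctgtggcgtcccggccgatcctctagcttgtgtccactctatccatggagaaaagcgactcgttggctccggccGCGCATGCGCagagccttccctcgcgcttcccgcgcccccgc
Atp5g3 (chr2:73911327-73911576, minus strand): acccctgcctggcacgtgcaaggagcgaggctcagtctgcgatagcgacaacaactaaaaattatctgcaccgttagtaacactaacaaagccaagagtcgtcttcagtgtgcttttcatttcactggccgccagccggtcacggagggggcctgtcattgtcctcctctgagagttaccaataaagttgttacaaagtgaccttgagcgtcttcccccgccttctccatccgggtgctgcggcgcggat
Cox6b1 (chr7:30626115-30626364, minus strand): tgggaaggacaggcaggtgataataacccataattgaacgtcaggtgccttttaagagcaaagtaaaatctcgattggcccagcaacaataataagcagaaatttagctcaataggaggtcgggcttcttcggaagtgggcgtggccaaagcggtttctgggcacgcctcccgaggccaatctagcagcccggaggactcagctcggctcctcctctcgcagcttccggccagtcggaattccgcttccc
Cox6b2 (chr7:4753095-4753344, minus strand): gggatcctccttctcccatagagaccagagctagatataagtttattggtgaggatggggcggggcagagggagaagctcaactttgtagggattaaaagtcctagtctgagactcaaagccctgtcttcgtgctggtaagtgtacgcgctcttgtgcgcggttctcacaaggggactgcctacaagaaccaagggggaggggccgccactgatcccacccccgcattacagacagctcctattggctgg

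In Atp5g2 the NRF1 match begins 42 bases before the RefSeq start. That start lies inside the GENCODE interval given above for Atp5g2, whose outermost transcript begins further upstream, so that the window printed is within the gene by that annotation. The RefSeq windows of Atp5g1 and Cox6b1 also reach into the GENCODE intervals of their genes. Atp5g3 holds a match after its start, and the windows of Atp5g1, Cox6b1 and Cox6b2 hold none. Windows of 300 bases, 250 before and 50 after the start, were found for 63 of the 79 genes and 10 of the 11 called. The NRF1 motif, GCGCAN followed directly by GCGC and searched on both strands, was in 16 of the 63 (25.4%) against 4.78% of 27025 windows of all genes. It was in 4 of the 10 called genes, Atp5g2, Atp5o, Cox6a1 and Ndufs5, and in 12 of the 53 not called (22.6%). The letters CCGGAAGT (GABPA) were in 5 of the 63 (7.94%) against 4.0% of all windows, and AAGATGGCG (YY1) in 6 (9.52%) against 1.49%. The 27025 windows cover RefSeq genes whether or not they were tested here, so these shares were not matched for expression. GABPA letters were in 1 of the 10 called genes and 4 of the 53 not called, and YY1 letters in 0 and 6. Matches of different motifs did not overlap in any of the 63 windows. The NRF1 match is thus found in genes that fell (Atp5g2, Atp5o) and in genes that rose (Cox6a1, Ndufs5), and it describes letters in a window and not binding.

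Over the complexes, 23 genes listed as core were set beside the 53 others. The list holds 6 subunits of complex I, the 4 genes of complex II, Uqcrfs1, Cyc1, Uqcrc1 and Uqcrc2 of complex III, and Cycs. It also holds Cox5a and Cox5b of complex IV and 6 subunits of the catalytic head and the stalks of complex V, Atp5o among them. Not each of the 23 thus carries a redox or catalytic centre. Of the 23, 1 (Atp5o) fell and none rose (4.35% called), with a median log2 fold change of -0.093. Of the 53, 3 fell and 7 rose (18.9% called), with a median of 0.068. The share of all genes called was 33%. DESeq2 called 1 core gene higher and limma 0, and 1 was higher at an unadjusted p under 0.05 with edgeR. Core genes are also longer, with a median of 1661 against 716 bases. After the GC and length correction 2 core genes were lower and 1 higher (13% called, median -0.093). Of the others, 5 were lower and 13 higher (34% called, median 0.052). The share of all genes called in that fit was 36.2%. Without KO replicate 3 the counts were 5 lower and 1 higher among core genes (26.1% called, median -0.081). Among the others 10 were lower and 11 higher (39.6% called), and their median turned to -0.0073. The share of all genes called without that library was 48.1%.

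The partners of these subunits were read from lists of the same pathway, against the same share of 33% for all genes. Without KO replicate 3 that share was 48.1%. The 10 subunits of the mitochondrial genome in the table had a median log2 fold change of 0.37, all 10 were positive, and 4 rose, all of them complex I subunits (mt-Nd2, mt-Nd4, mt-Nd5 and mt-Nd6). mt-Nd5, a proton-pumping subunit, was at 1561, 1608 and 1432 CPM in WT and at 1960.5, 2112 and 2243 CPM in KO (0.46 ± 0.092, adjusted p = 0.0138, edgeR quasi-likelihood test). mt-Nd6 overlaps mt-Nd5 on the opposite strand, and the use of strand in counting is not given in the sources used here. The 4 genes also rose without KO replicate 3, where 5 of the 10 were called, 7 were positive and 3 negative, and the median was 0.23. Their sum was 24349 to 27440 CPM in WT and 26058, 27372 and 33295 CPM in KO, which overlapped.

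Of 6 subunit and related genes that the name rule does not reach, 2 fell (2 lower and 1 higher without KO replicate 3). Ndufa4l2, a hypoxia-induced relative of Ndufa4, was at 12.6, 14.8 and 14.0 CPM in WT and at 4.49, 4.70 and 4.05 CPM in KO, far outside the spread of either group (-1.64 ± 0.13, adjusted p = 0.00182, edgeR quasi-likelihood test), while Ndufa4 itself rose. Atpif1, the inhibitor of ATP hydrolysis by complex V, was at 103, 111 and 93.2 CPM in WT and at 70.9, 70.8 and 73.3 CPM in KO, also without overlap (-0.52 ± 0.083, adjusted p = 0.00755, edgeR quasi-likelihood test). Of 50 assembly factors, 4 fell (Cox20, Cmc2, Nubpl and Foxred1) and 1 rose, and the median log2 fold change was 0.020 (7 and 3 without KO replicate 3, median -0.012). The gene that rose, Sdhaf2, attaches the flavin to Sdha and was at 31.6, 31.9 and 31.5 CPM in WT and at 48.0, 46.5 and 61.1 CPM in KO (0.71 ± 0.12, adjusted p = 0.00772, edgeR quasi-likelihood test).

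Of 20 regulators of mitochondrial gene expression, 8 fell and 1 rose, with a median log2 fold change of -0.30 (9 and 1 without KO replicate 3, median -0.22). Ppargc1b, a coactivator of mitochondrial biogenesis, was at 4.99, 5.51 and 5.12 CPM in WT and at 2.91, 1.85 and 1.14 CPM in KO (-1.40 ± 0.34, adjusted p = 0.0224, edgeR quasi-likelihood test), and Gabpb2 and Mterf4 fell by 0.77 and 0.63 on the log2 scale. Nrf1, whose motif was searched above, was at 36.0, 38.7 and 42.3 CPM in WT and at 30.6, 28.0 and 26.1 CPM in KO (-0.47 ± 0.099, adjusted p = 0.0158, edgeR quasi-likelihood test). It fell outside the rule for named genes and is given because of that motif. Tfb2m, a mitochondrial transcription factor, rose by 0.45 on the log2 scale. The share called was 45% among these regulators and 14.5% among the subunit genes, and the difference was not tested.

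Of 14 genes of the citric acid cycle, 3 fell and 2 rose (median -0.034, and 4 and 5 without KO replicate 3, median -0.015). Idh2, the NADP-dependent isocitrate dehydrogenase, was at 219, 230 and 248 CPM in WT and at 119.8, 117 and 69.5 CPM in KO (-1.19 ± 0.20, adjusted p = 0.00864, edgeR quasi-likelihood test). Idh3g and Suclg2 fell by 0.45 and 0.43, and Sucla2 and Mdh2 rose by 0.30 and 0.24 on the log2 scale. Suclg2 and Sucla2 code for the GTP-forming and ATP-forming partners of succinyl-CoA ligase. Of 12 genes of pyruvate entry, 3 fell (Pdp2, Pdp1 and Pdk2) and 2 rose (median -0.020, and 5 and 2 without KO replicate 3, median -0.035), with Pdk4, a kinase that switches off pyruvate dehydrogenase, at 1.48 ± 0.36 (adjusted p = 0.0243, edgeR quasi-likelihood test) with all libraries and 0.97 without KO replicate 3. Of 19 glycolysis genes, 2 fell and 4 rose (median 0.24, and 4 and 7 without KO replicate 3, median 0.12). Aldoc and Slc16a3, a lactate exporter, fell by 1.81 and 0.63, and Pgam1, the glucose transporter Slc2a1 and Eno1 rose by 0.75, 0.52 and 0.52 on the log2 scale, with 0.45 for Pgam1 and 0.34 for Eno1 without KO replicate 3.

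Other gene groups of mitochondria and of translation differed in their counts. Of 78 mitochondrial ribosomal protein genes, 6 fell and 5 rose (median -0.045, and 15 and 6 without KO replicate 3, median -0.10), with Mrpl48 and Mrps16 at -0.49 and -0.47 and Mrpl43 and Mrps6 at 0.42 and 0.40. Of 22 genes of the mitochondrial import machinery, 4 fell and 5 rose (median 0.092, and 6 and 5 without KO replicate 3, median 0.039), with Timm21 at -0.65 and Timm17a at 0.52. In contrast, 55 of 79 cytosolic ribosomal protein genes fell and none rose, with a median log2 fold change of -0.40 (DESeq2 and limma also called 0 higher, and 0 were higher at an unadjusted p under 0.05 with edgeR). Without KO replicate 3 these counts were 76 and 0 (median -0.47). Their summed level was 62664 to 68345 CPM in WT and 47760, 48415 and 54489 CPM in KO. With a median length of 906 bases they are as short as the respiratory chain genes, at 908 bases. All 12 proliferation genes fell (median -1.48) and, of 8 fibroblast markers, Pdgfra and Thy1 fell by 1.22 and 1.11. No tested marker of the macrophage (6), endothelial (2), epithelial (4), muscle (2) or adipocyte (1) lists was called by edgeR, with 0, 0, 2, 1 and 0 at an unadjusted p under 0.05, and DESeq2 and limma each called 1 epithelial marker lower and none of the others. Without KO replicate 3 edgeR called 2 of 4 epithelial markers (Krt8 and Krt18) and 1 of 3 muscle markers (Actc1) lower, and of the fibroblast markers 2 lower and 1 higher. The part of these markers in the values above was not tested.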

How the data were processed

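RNA-seq of 3 WT and 3 KO samples was analysed, with genotype and replicate taken from the labels. Libraries were poly(A)-selected and strand-specific. Per the labels and the study's methods, reads were aligned to GRCm38/mm10 with HISAT2 2.1.0, and the counting program and its use of strand are not given in the sources used here. The authors deposited raw counts per gene, without normalization, and FPKM values from Cufflinks 2.1.1 for 12633 genes. The 6 per-sample count columns beside the FPKM values, and the authors' fold change and adjusted p-value columns, were not used. The other assays of the study are not analysed here.

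Counts were analysed in R 4.3.3 with edgeR 4.0.16 (TMM factors, filterByExpr at its defaults, quasi-likelihood test of genotype without covariates, Benjamini-Hochberg adjustment over 13386 genes, common dispersion 0.0353). SEs were taken as the size of the log2 fold change over the square root of the F statistic, and CPM use TMM-normalized library sizes. Libraries held 20545442 to 21746898 counts. Positions and overlapping exons came from GENCODE release M21. A gene was held to have a near-identical copy at 95% identity over 150 bases (BLAST+ 2.17.0). Of the 79, 20 have such a copy and 26 share exonic bases with another gene. The genes named are the 3 called genes with the largest change per direction and complex, core subunits, isoform sets, the highest FPKM per complex, genes removed by the filter, up to 3 called genes per direction of the other lists, and Rnf20. Ndufb9, Ndufa7, Foxred1, mt-Nd2, Nrf1 and Atp5l were named after their values were seen. The values of 1 complex I gene are not reported here. The genes and lists were chosen with earlier results of these data known. Alternatives were RLE factors, library totals, DESeq2 1.42.0, limma 3.58.1 on log2(FPKM + 1), other filters, an adjusted p under 0.01, a GC and length correction (loess span 0.5), the replicate number as a block, a Ddx3y term and each library left out. Counts and lists without KO replicate 3 were added after the data were seen. The tests were checked on simulated counts.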

Additional observations from a re-analysis of the deposited data

How the results depend on the processing

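The median log2 fold change of the respiratory chain genes was 0.0088 and lay between -0.037 and 0.041 with a library left out, at -0.052 with library totals and at -0.053 with the Ddx3y term. These moves were smaller than the SD of the medians of the KO libraries, which KO replicate 3 widens, but those of library totals and the Ddx3y term were larger than the range of the WT medians (-0.020 to 0.027), and 0 genes passed the study's thresholds in any fit. The counts of 4 lower and 7 higher moved more. Lower genes numbered 2 with RLE factors (32.9% of all genes called), 2 without a filter on low counts (24%) and 2 with limma on log2(FPKM + 1), which called 4 higher (28.8%). The GC and length correction gave 7 lower and 14 higher (36.2%), and an adjusted p under 0.01 gave 1 and 0 (9.88%). Numbers of calls are not given for the Ddx3y term, where the genotype effect rested on KO replicate 2 alone. That fit is among the 15 alternatives over which kept calls are counted below. Leaving out a library gave 1 to 15 lower and 0 to 12 higher, with 2 and 1 without WT replicate 1 (14.3% of all genes called), 1 and 1 without WT replicate 2 (11.9%), 1 and 0 without WT replicate 3 (10.3%), 2 and 7 without KO replicate 1 (27.7%), 2 and 4 without KO replicate 2 (24%) and 15 and 12 without KO replicate 3 (48.1%). Samples with the same replicate number did not deviate together (r = -0.066, 0.037 and 0.011), so the numbers were not taken as pairs, and with the replicate number as a block 2 genes were lower and 3 higher (21.5% of all genes called). Not every sample correlated best with its own number. The cause of these shifts was not tested. Of the 11 called genes, Atp5g2 kept its call in 14 of 15 alternatives, Ndufa4, Cox6a1 and Cox6b2 in 12, Ndufb3 in 10, Ndufs5 and Uqcr11 in 9, Ndufb7 in 8, Atp5o and Ndufb9 in 5 and Ndufb11 in 4, with no change of sign. In most of the 76 genes the change was under 0.25 on the log2 scale, against a median SE of 0.10. Most changes of that size did not pass with 3 against 3 libraries, though Atp5o at -0.21 and Ndufb11 at -0.23 did. In simulated counts of that design edgeR called 10% of the genes changed by 0.5 and 63% of those changed by 1 on the log2 scale, among 13268 genes tested. Each size was given to 100 genes drawn from all expressed genes, whereas 33% of all genes were called in the data. The adjusted p limit is harder to pass where few genes change, so these shares cannot be carried over to the respiratory chain genes.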
